A study of Mus musculus with 28 samples.

Results

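The 10 genes described here mark the endothelial cells of the liver: Pecam1, Cdh5, Kdr, Tek, Stab1, Stab2, Lyve1, Clec4g, Oit3 and Ehd3. They were taken by gene name from both count tables of a series on focal adhesion kinase (FAK, the product of Ptk2) in mouse liver. All 10 were present among the 35275 genes of each table, and all 10 passed the filter on low counts in both tables, where 12507 genes of the unfed libraries and 13955 genes of the DDC libraries were tested. The series held 28 RNA-Seq libraries in 8 groups, all from FVB mice whose FAK gene was flanked by loxP sites (FAKfl/fl), so every control carried the floxed alleles too. The 12 DDC livers came from mice fed a diet with 0.1% w/w 3,5-diethoxycarbonyl-1,4-dihydrocollidine (DDC), which injures bile ducts, for 4 to 8 weeks, and the age of these mice is not given in the sources used here. In the Bred method, FAK was lost in FAKfl/fl;Alb-Cre+ mice (Bred KO, n = 3), whose littermate controls were FAKfl/fl;Alb-Cre- (Bred WT, n = 3). In the Virus method, FAKfl/fl mice received the vector AAV8-TBG-Cre by tail vein (Virus KO, n = 3), and their littermate controls received AAV8-TBG-Null, a vector without Cre (Virus WT, n = 3). The 16 unfed libraries came from 6- to 8-week-old FAKfl/fl;Alb-Cre+ mice (KO) and FAKfl/fl;Alb-Cre- littermates (WT), as isolated hepatocytes or as whole-liver tissue, with 4 libraries in each of hepatocyte KO, hepatocyte WT, tissue KO and tissue WT.

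Both drivers bear on how these genes can be read. The albumin promoter drives Cre in hepatocytes and bile duct cells from the fetal liver on, and the thyroxine-binding globulin promoter drives it in hepatocytes of the grown mouse, so neither driver is one of endothelial cells. Liver sinusoidal endothelial cells line the capillaries between plates of hepatocytes. They are perforated by open pores, lack a regular basement membrane and carry scavenger receptors that clear hyaluronan, collagen fragments and other waste from blood, and in chronic injury they are known to lose pores and to take on features of ordinary capillaries. The groups are bulk libraries, in which fewer endothelial cells and less RNA per endothelial cell cannot be told apart.

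The libraries held between 11162678 and 20428773 counts. The 10 genes together took 0.0125% to 0.0511% of a library's counts, which was 2297 to 10234 counts. Ptk2, the deleted gene, was lower in KO than in WT in every comparison, with a log2 change of -1.70 in Bred livers, -1.26 in Virus livers, -2.53 in hepatocytes and -1.99 in tissue (edgeR quasi-likelihood test, Benjamini-Hochberg adjusted p from 9.33e-08 to 0.00575). The unfed tissue libraries differed by gene length. In tissue WT replicates 2 and 4, the deviation of a gene from its mean over libraries went with its length (Spearman rho across genes 0.52 and 0.51), against -0.47 to 0.03 in the other 6 tissue libraries. The trend was of the opposite sign in tissue KO replicates 1 and 2 (-0.47 and -0.34) and tissue WT replicate 1 (-0.39). These trends touch the comparisons of unfed libraries below, because the 10 genes span 1442 to 8228 bases.

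The genes fall into 2 roles. Pecam1 (CD31), Cdh5 (VE-cadherin), Kdr (VEGF receptor 2) and Tek (the angiopoietin receptor TIE2) serve the junctions and growth signals of endothelium in every organ. The other 6 are typical of the sinusoid. Stab1 and Stab2 encode the paralogous scavenger receptors stabilin-1 and stabilin-2. Lyve1 encodes a hyaluronan receptor that lymphatic endothelium also carries, Clec4g encodes the lectin LSECtin, Ehd3 encodes an ATPase of endocytic recycling, and Oit3 is used as a marker of sinusoidal endothelium. Outside endothelium, Pecam1 is also made by platelets and leukocytes, and Stab1 and Lyve1 by some macrophages.

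In mm10, Pecam1 (ENSMUSG00000020717) lies on chromosome 11 from 106654217 to 106750628, Cdh5 (ENSMUSG00000031871) on chromosome 8 from 104101625 to 104144502, Kdr (ENSMUSG00000062960) on chromosome 5 from 75932827 to 75978458, and Tek (ENSMUSG00000006386) on chromosome 4 from 94739289 to 94874976. Stab1 (ENSMUSG00000042286) lies on chromosome 14 from 31139013 to 31168641, and Stab2 (ENSMUSG00000035459) on chromosome 10 from 86841198 to 87008025. Lyve1 (ENSMUSG00000030787) lies on chromosome 7 from 110850607 to 110862953, Clec4g (ENSMUSG00000074491) on chromosome 8 from 3707064 to 3720651, Oit3 (ENSMUSG00000009654) on chromosome 10 from 59422958 to 59441778, and Ehd3 (ENSMUSG00000024065) on chromosome 17 from 73804841 to 73832093. The gene span of Stab1 overlaps that of Nt5dc2 on the opposite strand. Nt5dc2 had 1951 counts and Stab1 11553 over the unfed libraries, and 3228 and 21244 over the DDC libraries. The library kit kept strand, but the strand setting of the counting is not given in the sources used here. How reads of the stretch shared by Stab1 and Nt5dc2 were counted is thus not known.

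RefSeq (GRCm38.p6) gave a promoter for 6 of the 10 genes: Clec4g, Ehd3, Stab1, Stab2, Kdr and Tek. The 250 bases before the RefSeq start are printed for 4 of them: Clec4g and Ehd3, on which the comparisons below turn, and the paralogs Stab1 and Stab2. For Stab2 this start lies inside the gene span given above, so part of its printed stretch falls within that span. Capitals mark AGGAAG or its reverse complement CTTCCT, a short core that ETS factors of endothelium can bind.
Clec4g, chr8:3720652-3720901, minus strand: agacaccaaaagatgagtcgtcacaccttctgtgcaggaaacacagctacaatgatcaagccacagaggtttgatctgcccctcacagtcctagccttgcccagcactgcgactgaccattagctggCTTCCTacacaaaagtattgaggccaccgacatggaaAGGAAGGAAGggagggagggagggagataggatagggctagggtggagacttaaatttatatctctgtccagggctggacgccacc
Ehd3, chr17:73804591-73804840, plus strand: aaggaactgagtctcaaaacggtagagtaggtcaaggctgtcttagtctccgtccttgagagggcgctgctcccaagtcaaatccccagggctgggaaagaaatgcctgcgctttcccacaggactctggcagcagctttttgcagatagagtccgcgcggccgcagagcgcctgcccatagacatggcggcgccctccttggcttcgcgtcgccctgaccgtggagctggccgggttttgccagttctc
Stab1, chr14:31168642-31168891, minus strand: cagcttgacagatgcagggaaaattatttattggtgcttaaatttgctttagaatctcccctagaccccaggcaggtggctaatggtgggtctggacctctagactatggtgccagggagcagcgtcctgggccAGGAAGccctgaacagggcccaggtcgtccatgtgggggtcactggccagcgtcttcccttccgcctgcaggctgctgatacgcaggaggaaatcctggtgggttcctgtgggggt
Stab2, chr10:87007943-87008192, minus strand: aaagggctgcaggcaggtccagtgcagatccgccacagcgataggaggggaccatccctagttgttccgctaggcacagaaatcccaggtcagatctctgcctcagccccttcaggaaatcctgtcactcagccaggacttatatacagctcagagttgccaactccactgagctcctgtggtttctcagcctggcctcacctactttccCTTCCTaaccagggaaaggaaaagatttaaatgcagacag
The Clec4g promoter held 3 matches on the 2 strands, of which 2 overlapped in AGGAAGGAAG. The Stab1 and Stab2 promoters held 1 each, and those of Ehd3, Kdr and Tek held 0. At least 1 match was thus present in 3 of 6 promoters, beside 29.5% of all 32851 promoters of the same length. Searched on both strands, AGATAA (the GATA family) was in 0 of the 6 and in 9.99% of all promoters, and AACAGGAA (a forkhead and an ETS core side by side) in 0 of the 6 and in 2.25% of all. These are matches of letters in this window and not measured binding sites.

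In unfed whole liver Clec4g and Ehd3 were the most abundant of the 10 genes per length, and Lyve1 and Tek the least. Levels are given in FPKM, reads scaled to gene length and to the mapped total of the library. Clec4g averaged 40.4 ± 1.77 FPKM in tissue KO and 34.4 ± 8.59 FPKM in tissue WT (SD, n = 4 each), and Ehd3 22.4 ± 3.45 and 23.8 ± 3.80 FPKM in the same groups. In tissue KO the lowest Clec4g value, 38.5 FPKM, was above the highest Ehd3 value, 27.4 FPKM, whereas in tissue WT the 2 genes overlapped. Oit3 and Kdr came next in both groups (8.24 to 10.99 FPKM on average), and Cdh5, Pecam1, Stab1 and Stab2 followed with means of 4.62 to 7.63 FPKM, in an order that the spread between libraries did not separate. Tek averaged 3.58 ± 0.540 FPKM in tissue KO and 3.14 ± 0.949 FPKM in tissue WT. Lyve1 was lowest, at 1.65 ± 0.517 FPKM in tissue KO and 1.89 ± 1.11 FPKM in tissue WT. With 20 to 127 counts of Lyve1 in an unfed library, it was also the least precisely counted.

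**Figure D1:**
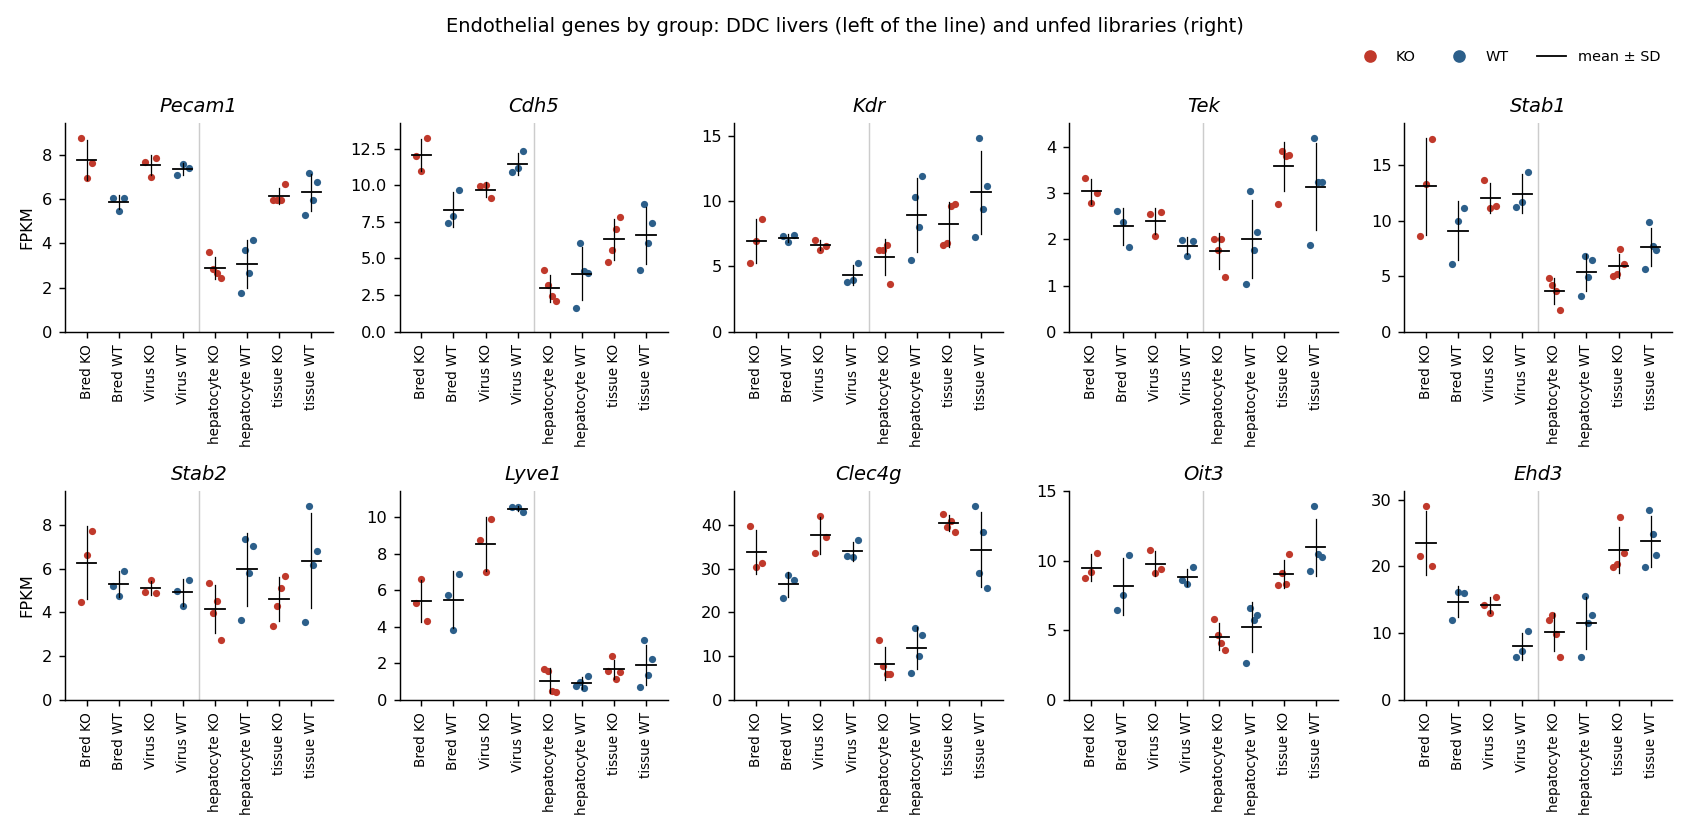
Level of each of the 10 endothelial genes in FPKM (vertical axes, each from 0) in every library of the 8 groups, with KO in red and WT in blue. Black bars are the mean and SD (n = 3 on the left of each grey line, in DDC livers, and n = 4 on the right). Clec4g, Pecam1, Oit3 and Ehd3 of both genotypes lay lower in every hepatocyte library than in any tissue library of the same genotype, and Ehd3 lay higher in every KO than in any WT library of each DDC method.

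The DDC and unfed tables were made separately, so their levels can only be set side by side, and diet, age and table cannot be told apart. As a ratio of WT means, Lyve1 had the widest gap of the 10 genes. It averaged 5.48 ± 1.56 FPKM in Bred WT and 10.5 ± 0.145 FPKM in Virus WT (SD, n = 3 each), against 1.89 ± 1.11 FPKM in tissue WT (n = 4), and ranked 8 and 4 of 10 in the DDC groups against 10 in the tissue group. Tek was the lowest of the 10 in all 4 DDC groups (1.87 to 3.04 FPKM on average). Ehd3 averaged 14.7 ± 2.32 FPKM in Bred WT and 8.01 ± 2.06 FPKM in Virus WT, beside 23.8 ± 3.80 FPKM in tissue WT, and its Bred WT and Virus WT values all lay under the tissue WT values. Stab1 and Cdh5 stood at 9.07 to 12.4 and 8.33 to 11.5 FPKM on average in the DDC WT groups, above their tissue WT means of 7.63 and 6.58 FPKM, but Stab1 and Cdh5 in Bred WT overlapped tissue WT.

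The comparison of isolated hepatocytes with whole tissue asks how much of the endothelial transcripts remained after hepatocytes were purified by density. Among KO libraries 7 of the 10 genes were lower in hepatocytes than in tissue, and 0 were higher. The 7 were Pecam1, Cdh5, Tek, Stab1, Clec4g, Oit3 and Ehd3 (edgeR quasi-likelihood test, adjusted p < 0.05; 23.9% of the 12507 genes tested were called lower and 44.1% were called in either direction). Among WT libraries 4 were lower, Pecam1, Clec4g, Oit3 and Ehd3, where 15.6% of all genes were called lower and 25.4% in either direction. The difference between the genotypes in this change was tested as an interaction, and it was called for 0 of the 10 genes by edgeR (0 at an unadjusted p under 0.05), for 0 of all genes by edgeR (36 by DESeq2), and for 0 of the 10 by DESeq2 and by limma.

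Clec4g, the sinusoidal lectin, had the largest change of the 10 in both genotypes. It had 13.7, 7.73, 5.78 and 5.76 FPKM in hepatocyte KO libraries, against 42.6, 39.6, 41.0 and 38.5 FPKM in tissue KO libraries. In hepatocyte WT libraries it had 6.04, 16.5, 10.1 and 14.8 FPKM, against 44.4, 29.0, 38.5 and 25.7 FPKM in tissue WT libraries. No hepatocyte library reached a tissue library of its genotype. Clec4g was thus 5.05-fold lower in KO hepatocytes (log2 change -2.34 ± 0.31, SE; adjusted p = 0.000109 by edgeR) and 2.84-fold lower in WT hepatocytes (log2 change -1.51 ± 0.30; adjusted p = 0.00445).

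Ehd3, the recycling ATPase, was lower in hepatocytes of both genotypes too. It had 12.02, 12.7, 9.78 and 6.34 FPKM in hepatocyte KO libraries, against 19.8, 20.4, 27.4 and 22.0 FPKM in tissue KO libraries. In hepatocyte WT libraries it had 6.33, 15.6, 11.4 and 12.8 FPKM, against 19.9, 28.5, 24.9 and 21.7 FPKM in tissue WT libraries. Its groups did not overlap in either genotype. The log2 change of Ehd3 was -1.16 ± 0.24 in KO (adjusted p = 0.00134) and -0.995 ± 0.24 in WT (adjusted p = 0.00912, edgeR). Oit3 changed by -1.03 ± 0.23 in KO (adjusted p = 0.00213) and -1.02 ± 0.23 in WT (adjusted p = 0.00727).

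Of the genes shared by all endothelium, Pecam1 was lower in hepatocytes of both genotypes. It had 3.59, 2.86, 2.65 and 2.45 FPKM in hepatocyte KO libraries, against 5.98, 5.99, 5.99 and 6.70 FPKM in tissue KO libraries. In hepatocyte WT libraries it had 1.73, 3.72, 2.65 and 4.16 FPKM, against 5.31, 7.19, 5.97 and 6.77 FPKM in tissue WT libraries. Tissue libraries were all above hepatocyte libraries, and the log2 change of Pecam1 was -1.13 ± 0.21 in KO (adjusted p = 0.000686) and -0.99 ± 0.20 in WT (adjusted p = 0.0053, edgeR). Cdh5 and Tek passed the test among KO libraries and not among WT libraries. Cdh5 had a log2 change of -1.11 ± 0.31 in KO (adjusted p = 0.00806) and of -0.68 ± 0.30 in WT (adjusted p = 0.106). Tek had a log2 change of -1.06 ± 0.27 in KO (adjusted p = 0.0054) and of -0.60 ± 0.27 in WT (adjusted p = 0.112). Without hepatocyte WT replicate 2, which had the highest summed FPKM of the 10 genes among hepatocyte libraries, Cdh5 and Tek passed in WT as well (adjusted p = 0.0439 and 0.0378).

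The 3 longest genes, Stab2, Stab1 and Kdr, had the smallest log2 changes. Stab2 had 5.37, 3.97, 4.51 and 2.75 FPKM in hepatocyte KO libraries, against 3.40, 4.29, 5.12 and 5.66 FPKM in tissue KO libraries. In hepatocyte WT libraries it had 3.67, 7.38, 5.82 and 7.06 FPKM, against 3.58, 8.89, 6.19 and 6.84 FPKM in tissue WT libraries. The Stab2 groups overlapped over most of their range, and its log2 change was -0.18 ± 0.25 in KO (adjusted p = 0.586) and -0.04 ± 0.25 in WT (adjusted p = 0.933, edgeR). Kdr stood at -0.55 ± 0.25 in KO (adjusted p = 0.0826) and -0.20 ± 0.25 in WT (adjusted p = 0.562), and Stab1 at -0.73 ± 0.25 in KO (adjusted p = 0.0281) and -0.46 ± 0.25 in WT (adjusted p = 0.179). The Stab1 call in KO was lost without hepatocyte KO replicate 4 or without tissue KO replicate 3 (log2 change -0.52 and -0.60; highest adjusted p = 0.0892). Lyve1, with few counts, had log2 changes of -0.74 ± 0.47 in KO (adjusted p = 0.208) and -1.001 ± 0.47 in WT (adjusted p = 0.12). On counts scaled to library size (CPM), 8 genes of KO (all but Stab2 and Lyve1) and 4 of WT (Pecam1, Clec4g, Oit3 and Ehd3) had every hepatocyte library below every tissue library, which was so for 22.9% and 12.7% of all genes, and each of these had the smallest p the design allows (exact permutation test, two-sided, p = 0.0286, n = 4 per group).

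The size of the change went with gene length. Over the 10 genes, Spearman's rho between the length of a gene and its log2 change of hepatocyte against tissue was 0.67 in KO and 0.96 in WT, and over all 12507 genes it was 0.43 and 0.42 (across genes, which share the same libraries). With each library's trend on gene length removed, rho over all genes was 0.02 and 0.04, and over the 10 genes 0.10 in KO and 0.81 in WT. The same step shifted the median change of all genes to 0.13 in KO and 0.11 in WT. With the trend removed 9 of the 10 genes were called lower in KO hepatocytes, Lyve1 excepted. Kdr then stood at -0.77 (adjusted p = 0.00546) and Stab2 at -0.59 (adjusted p = 0.021). In WT 5 were called, with Stab1 added (log2 change -0.71, adjusted p = 0.0312), and Stab2 stood at -0.25. Clec4g, the shortest of the 10, moved to -1.81 in KO and -1.05 in WT and kept its call. Why hepatocyte and tissue libraries differed by gene length was not tested.

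**Figure D2:**
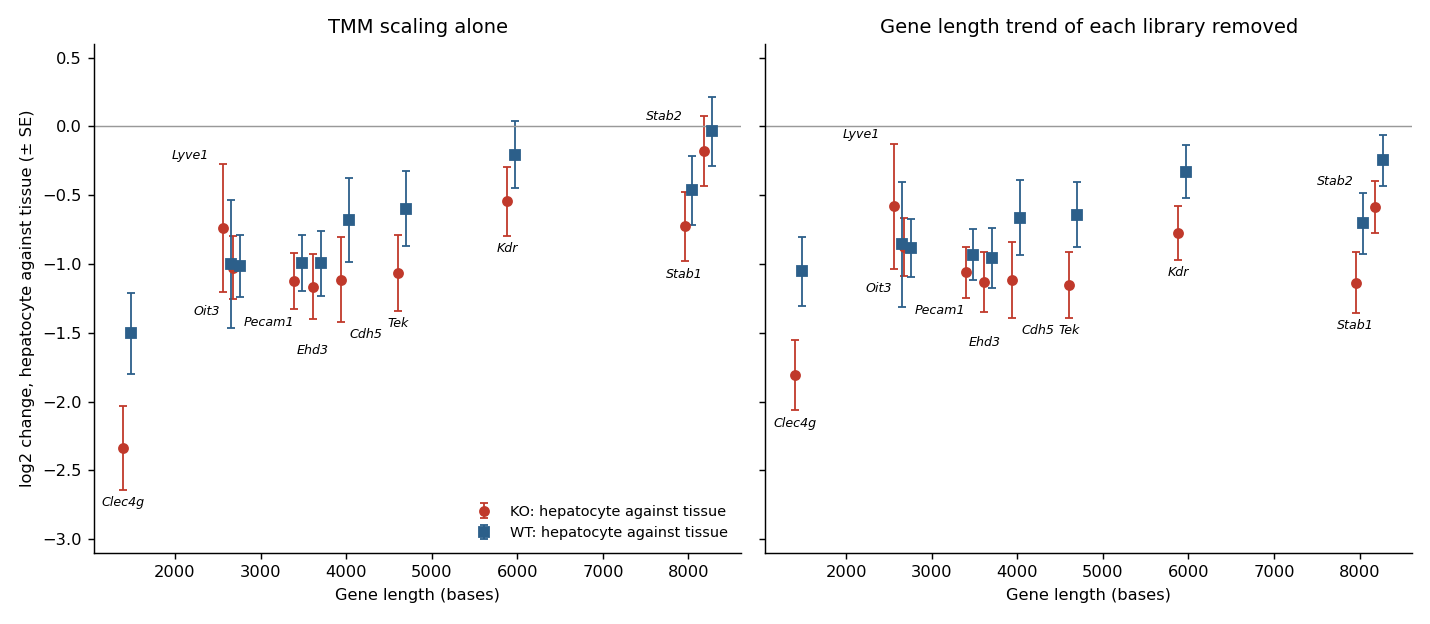
Log2 change of each of the 10 endothelial genes in hepatocyte against tissue libraries (vertical axis, ± SE) against gene length in bases (horizontal axis), for KO (red circles) and WT (blue squares, drawn slightly to the right of KO). The left panel uses TMM scaling alone and the right panel the fit with each library's gene length trend removed; Clec4g in KO stood at -2.34 on the left and -1.81 on the right, and Stab2 in KO at -0.18 and -0.59.

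Endothelial transcripts were still measured in every hepatocyte library. The summed FPKM of the 10 genes was 30.2 to 59.5 in hepatocyte KO, 32.4 to 77.1 in hepatocyte WT, 101 to 117 in tissue KO and 102 to 128 in tissue WT libraries. The 10 genes had a median log2 change of -1.04 in KO and -0.84 in WT, beside -0.03 and -0.02 for all genes. Over the other sinusoidal genes it was -1.13 and -0.63 (8 and 5 of 10 called lower), and over the other genes of all endothelium -1.48 and -1.25 (16 and 11 of 18 called lower). Macrophage markers stood at -2.73 and -2.10 (11 of 11 called lower in each), biliary markers at -5.43 and -4.28 (4 of 5 called lower in each) and lymphocyte markers at -3.51 and -3.96 (2 of 2 in each). Stellate cell markers, at -1.13 and -1.31, had a median near that of the endothelial lists. Hepatocyte markers stood at 0.37 and -0.24. These medians are descriptions of the lists, and the difference between lists was not tested.

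**Figure D3:**
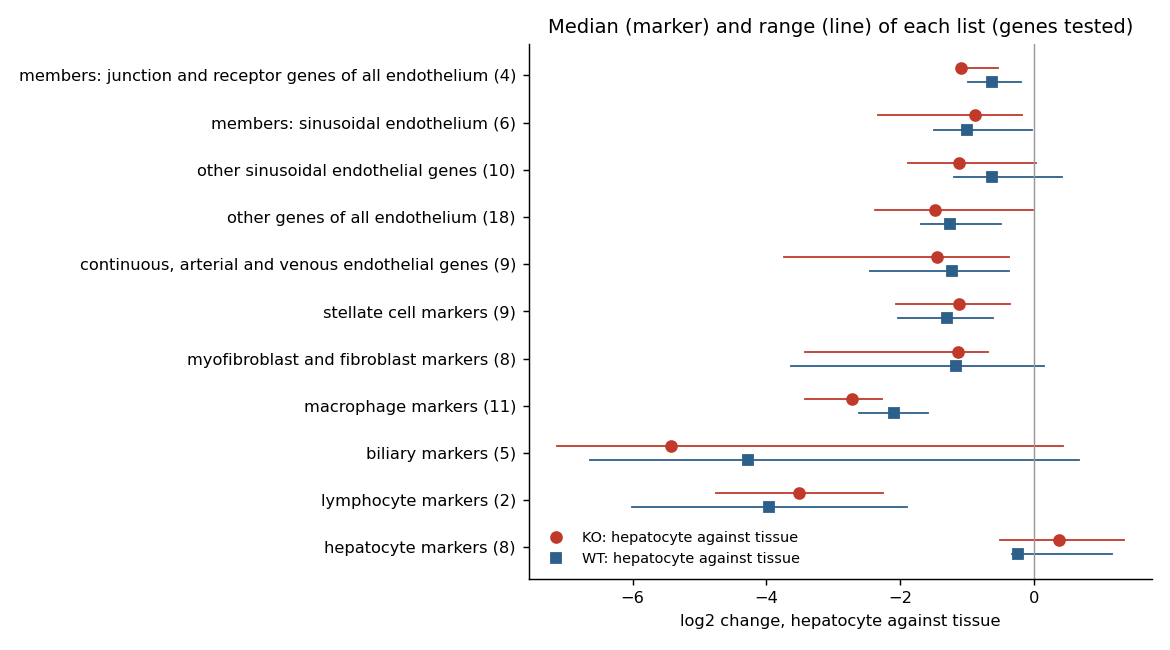
Median (marker) and range (line) of the log2 change of hepatocyte against tissue (horizontal axis) for lists of cell type genes, with the number of genes tested in brackets, in KO (red circles) and WT (blue squares). The endothelial and stellate cell lists had medians between -1.48 and -0.63, and the macrophage, biliary and lymphocyte lists between -5.43 and -2.10.

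In unfed whole-liver tissue, no endothelial gene passed the test between KO and WT. By edgeR 0 of the 10 were called, with 0 at an unadjusted p under 0.05, and 0 were called by DESeq2 or limma, while 0.008% of all genes were called by edgeR. The KO and WT libraries overlapped for each of the 10 genes (5.22% of all genes did not overlap). The log2 change was below 0 in 8 of the 10 with a median of -0.13. The largest were those of the long genes Stab2 (-0.46 ± 0.25, adjusted p = 0.376), Kdr (-0.37 ± 0.25, adjusted p = 0.464) and Stab1 (-0.36 ± 0.25, adjusted p = 0.488). Kdr had 6.66, 6.82, 9.66 and 9.80 FPKM in tissue KO libraries, against 7.29, 14.8, 9.43 and 11.1 FPKM in tissue WT libraries. Tissue WT replicate 2 was the highest tissue library for 9 of the 10 genes, Clec4g excepted, and without it the median log2 change over the 10 genes was 0.01. With the gene length trend removed Stab2, Kdr and Stab1 stood at -0.13, -0.16 and -0.06.

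In isolated hepatocytes 9 of the 10 genes had a lower estimate in KO than in WT, and 0 passed the test by edgeR (3 at an unadjusted p under 0.05), DESeq2 or limma, where 0.32% of all genes were called. The receptor gene Kdr had the smallest p. It had 6.29, 6.30, 6.66 and 3.67 FPKM in hepatocyte KO libraries, against 5.46, 10.3, 7.99 and 11.9 FPKM in hepatocyte WT libraries. Kdr values of KO overlapped those of WT through hepatocyte WT replicate 1, and the log2 change was -0.71 ± 0.25 (adjusted p = 0.36, edgeR). Stab1, Stab2 and Clec4g stood at -0.62 ± 0.25 (adjusted p = 0.478), -0.61 ± 0.25 (adjusted p = 0.49) and -0.61 ± 0.30 (adjusted p = 0.574). None of the 10 genes separated KO from WT (5.84% of all genes did). The median over the 10 genes was -0.40, and -0.64 to -0.20 when each library was left out in turn. All 11 macrophage markers had lower estimates in KO hepatocytes too, with 0 called by edgeR (3 at an unadjusted p under 0.05) and a median of -0.60. Their summed FPKM was 15.3 to 46.1 in hepatocyte KO and 16.4 to 63.3 in hepatocyte WT libraries. Stellate cell markers had estimates of both signs, from -0.55 for Pdgfrb to 0.38 for Dcn. Their summed FPKM was 37.67 to 80.23 in hepatocyte KO and 22.19 to 72.35 in hepatocyte WT libraries. The part of unequal carry-over of non-parenchymal cells in the endothelial values was not tested. With tissue and hepatocyte libraries pooled as 8 KO against 8 WT, 0 of the 10 genes were called by edgeR (2 at an unadjusted p under 0.05), DESeq2 or limma (0.0253% of all genes by edgeR).

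In DDC livers of the Bred method most endothelial genes had a higher estimate in KO, and Cdh5, Ehd3 and Pecam1 had the smallest p of the 10. The estimate was above 0 for 8 of the 10 genes with a median log2 change of 0.26. By edgeR 0 of the 10 passed (3 at an unadjusted p under 0.05), while 6.25% of all genes were called at an adjusted p under 0.05. DESeq2 and limma each called Cdh5 alone. On the CPM scale every KO library was above every WT library for Pecam1, Cdh5, Tek and Ehd3, which was so for 12.6% of all genes, and 24.5% of all genes did not overlap in either direction. With 3 against 3 the exact permutation test cannot go below p = 0.1, which each of these 4 genes reached. In FPKM the KO libraries were above the WT libraries for Clec4g too.

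Cdh5, the cadherin of endothelial junctions, had 12.01, 11 and 13.2 FPKM in Bred KO livers, against 7.39, 7.91 and 9.70 FPKM in Bred WT livers. All 3 KO values were above all 3 WT values, and the log2 change was 0.41 ± 0.12 (adjusted p = 0.055, edgeR). Ehd3 had 21.6, 29.1 and 20.1 FPKM in Bred KO livers, against 12.02, 16.1 and 16 FPKM in Bred WT livers. It was again separated by group, with a log2 change of 0.58 ± 0.21 (adjusted p = 0.106). Same-numbered Bred libraries deviated together, and with the replicate number as a block Cdh5 (0.42, adjusted p = 0.0391) and Ehd3 (0.56, adjusted p = 0.0438) passed, as did 1735 of all genes against 872 without the block. Leaving out Bred WT replicate 3 also brought Cdh5 past the threshold (0.52, adjusted p = 0.031).

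Pecam1 had 8.77, 6.96 and 7.65 FPKM in Bred KO livers, against 6.05, 5.49 and 6.04 FPKM in Bred WT livers, and a log2 change of 0.29 ± 0.11 (adjusted p = 0.126). Markers of platelets, which also make Pecam1, summed to 8.40 to 9.73 FPKM in Bred KO and 4.77 to 5.44 FPKM in Bred WT. By edgeR, Itga2b (0.88, adjusted p = 0.0451) and Pf4 (1.07, adjusted p = 0.0532) of this list had estimates above 0. Ppbp (-1.30, adjusted p = 0.286) went the other way. The part of platelets in the Pecam1 values was not tested. Stab1 had 8.64, 13.3 and 17.3 FPKM in Bred KO livers, against 6.08, 9.99 and 11.1 FPKM in Bred WT livers. The Stab1 values spread widely within each group and overlapped (log2 change 0.41 ± 0.25, adjusted p = 0.331). Kdr and Lyve1 were the 2 genes with estimates below 0, and their KO and WT values overlapped.

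Other endothelial genes gave calls in the same comparison. Of 18 further genes of all endothelium 5 rose in Bred KO and 0 fell. They were Tie1, the partner receptor of TEK (0.61 ± 0.11, adjusted p = 0.013), Nos3, endothelial nitric oxide synthase (1.35 ± 0.25, adjusted p = 0.013), Ramp2, a subunit of the adrenomedullin receptor (1.04 ± 0.24, adjusted p = 0.027), Esam, an adhesion molecule (0.53 ± 0.13, adjusted p = 0.0317) and Eng, a TGF-β co-receptor (0.78 ± 0.19, adjusted p = 0.0343). Among arterial and continuous endothelial genes Gja4, connexin 37, rose (1.32 ± 0.27, adjusted p = 0.0174; 1 of 12 tested). The endothelial signals Bmp6 (0.90 ± 0.20, adjusted p = 0.0266) and Bmp2 (0.73 ± 0.17, adjusted p = 0.0283) rose as well, 2 of 5 in their list. Mmrn1, a gene of lymphatic endothelium, fell (-2.44 ± 0.66, adjusted p = 0.0475). In its list of 4, Reln (0.58 ± 0.24, adjusted p = 0.155) and Pdpn (0.43, adjusted p = 0.741) had estimates above 0. That of Ccl21a was below 0 (-0.95, adjusted p = 0.476). The summed FPKM of the list overlapped, at 13.1 to 15.5 in Bred KO and 5.64 to 13.9 in Bred WT. Other sinusoidal genes gave 0 calls of 10 (3 at an unadjusted p under 0.05). Markers of other cells also stood apart between these livers. Stellate cell markers summed to 347 to 477 FPKM in Bred KO and 197 to 302 FPKM in Bred WT, and macrophage markers to 977 to 1202 and 668 to 786 FPKM. No single macrophage marker was called by edgeR (lowest adjusted p = 0.061, C1qc). Adgre1 (-0.02) and Timd4 (-0.26) had estimates below 0, and the other macrophage markers above 0. Myofibroblast and fibroblast markers summed to 159 to 274 FPKM in Bred KO and 75.6 to 122 FPKM in Bred WT. The summed hepatocyte, biliary, lymphocyte and red blood cell markers overlapped between Bred KO and Bred WT. The part of these cells in the endothelial values was not tested.

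In DDC livers of the Virus method the 10 genes had estimates of both signs. By edgeR 0 of the 10 passed (3 at an unadjusted p under 0.05; 2.66% of all genes were called), 3 had estimates above 0 and 7 below, and the median log2 change was -0.06. On the CPM scale Kdr and Ehd3 were higher in every KO than in any WT library, and Pecam1, Cdh5 and Lyve1 were lower, which makes 5 of 10 genes without overlap beside 32.2% of all genes. In FPKM, which is not corrected for the make-up of the library and moved the median of all genes by 0.11 on the log2 scale toward KO, the Pecam1 groups overlapped and Tek was higher in every KO than in any WT library. The estimates of Clec4g, Oit3, Pecam1 and Stab2, all near 0, changed sign between these scales.

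Ehd3 had 14.2, 13.1 and 15.4 FPKM in Virus KO livers, against 6.36, 7.36 and 10.3 FPKM in Virus WT livers. All KO values were above all WT values, and the log2 change was 0.67 ± 0.21 (adjusted p = 0.107, edgeR). Kdr had 7.02, 6.28 and 6.57 FPKM in Virus KO livers, against 3.81, 3.96 and 5.25 FPKM in Virus WT livers, with a log2 change of 0.45 ± 0.17 (adjusted p = 0.185). The Cdh5 estimate had the opposite sign. It had 9.93, 10.02 and 9.12 FPKM in Virus KO livers, against 10.9, 11.2 and 12.3 FPKM in Virus WT livers, with a log2 change of -0.41 ± 0.12 (adjusted p = 0.0886). Lyve1 had 8.75, 6.97 and 9.92 FPKM in Virus KO livers, against 10.6, 10.5 and 10.3 FPKM in Virus WT livers (log2 change -0.46 ± 0.22, adjusted p = 0.286). The Virus WT values of Lyve1 were close together and the KO values were spread below them. Cdh5 was called by DESeq2 (adjusted p = 0.026) and Ehd3 by limma (adjusted p = 0.0373), while limma on log2(FPKM + 1) put Cdh5 at -0.22 (adjusted p = 0.308).

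Of the other endothelial genes in Virus livers, Gata4, a transcription factor of sinusoidal endothelium (0.86 ± 0.20, adjusted p = 0.038), and Cldn5, a tight junction protein (1.05 ± 0.21, adjusted p = 0.023), rose in KO. Gata4 was not lower in unfed WT hepatocytes than in WT tissue (0.42 ± 0.21, adjusted p = 0.143), and the part of hepatocytes in its values was not tested. Esam (-0.63 ± 0.13, adjusted p = 0.0255) and Selp, P-selectin, which platelets also make (-1.53 ± 0.28, adjusted p = 0.0194), fell. These were the only calls among 10 other sinusoidal genes, 18 further genes of all endothelium and the arterial and continuous genes that passed the count filter. Stellate cell markers summed to 310 to 440 FPKM in Virus KO and 254 to 332 FPKM in Virus WT, and macrophage markers to 1123 to 1190 and 1032 to 1200 FPKM, both with overlap. Myofibroblast and fibroblast markers, at 144 to 189 FPKM in Virus KO and 87.3 to 131 FPKM in Virus WT, did not overlap. Neither did lymphocyte markers, at 7.19 to 7.60 and 4.95 to 5.47 FPKM. Among the myofibroblast and fibroblast markers Tagln (-1.35, adjusted p = 0.0118) and Acta2 (-1.22, adjusted p = 0.243) had estimates below 0. Those of Col1a1, Col1a2, Col3a1, Thy1, Eln and Pdgfra were above 0 and not called. The part of these cells in the endothelial values was not tested.

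**Figure D4:**
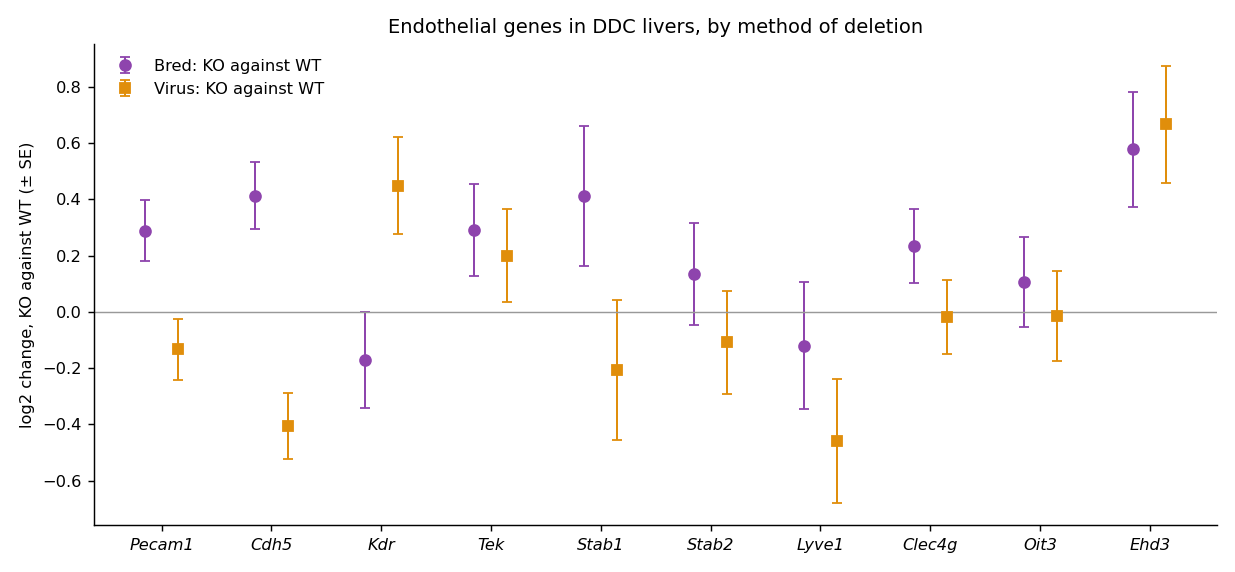
Log2 change of each of the 10 endothelial genes between KO and WT in DDC livers (vertical axis, ± SE, n = 3 per group) for the Bred method (purple circles) and the Virus method (orange squares). Ehd3 stood at 0.58 and 0.67, and Cdh5 at 0.41 and -0.41.

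Over both methods together Ehd3 was the 1 gene of the 10 that rose in KO livers. The log2 change was 0.62 ± 0.15 (1.54-fold, adjusted p = 0.0279, edgeR; 6.41% of all genes were called and 3.26% were called higher), and all 6 KO libraries were above the WT libraries of their own method. The call of Ehd3 was lost without any of the 3 Virus KO libraries and without Virus WT replicate 1 or 2 (log2 change 0.55 to 0.65 in these, highest adjusted p over all libraries left out 0.0729). The difference between the methods in the Ehd3 change was -0.09 ± 0.29 (Bred minus Virus, 95% interval -0.66 to 0.48, adjusted p = 0.913). Of the 10 other sinusoidal genes, Gpr182, a receptor (0.44 ± 0.09, adjusted p = 0.0208), and Gata4 (0.62 ± 0.14, adjusted p = 0.0227) rose over both methods. Gata4 was, as given above, not lower in unfed WT hepatocytes than in tissue. Of the 18 further genes of all endothelium, Ramp2 (0.80 ± 0.17, adjusted p = 0.0192), Tie1 (0.37 ± 0.08, adjusted p = 0.0214) and Eng (0.54 ± 0.14, adjusted p = 0.0369) rose. Vegfc, a ligand of VEGF receptors (0.54 ± 0.14, adjusted p = 0.04), rose too, from a list of 10 ligands of KDR and TEK and their partners.

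The methods differed for Cdh5. Its change in Bred livers minus that in Virus livers was 0.82 ± 0.17 on the log2 scale (adjusted p = 0.0229, edgeR interaction; 3.21% of all genes were called and 2% were called higher), and the 3 Bred KO livers were above their controls and the 3 Virus KO livers below theirs. The call was lost without Bred KO replicate 2, Virus KO replicate 1 or 3, or Virus WT replicate 1 or 3 (0.77 to 0.85 in these, highest adjusted p 0.0679), and limma on log2(FPKM + 1) gave 0.71 (adjusted p = 0.0505). For Pecam1 the difference was 0.42 ± 0.15 (adjusted p = 0.166) and for Kdr -0.62 (adjusted p = 0.197). The other 9 genes were not called. Of the other endothelial genes, Esam (1.16 ± 0.18, adjusted p = 0.00714), Gja4 (2.04 ± 0.37, adjusted p = 0.0153), Selp (2.21 ± 0.40, adjusted p = 0.0153), Bmp2 (1.05 ± 0.24, adjusted p = 0.0351) and Nos3 (1.48 ± 0.36, adjusted p = 0.0429) had the more positive change in Bred livers, and Cldn5 (-1.23 ± 0.29, adjusted p = 0.0394) the more negative.

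The control groups of the methods differed in endothelial genes as well. These comparisons use the same WT and KO libraries as those above, and breeding and the vector cannot be told apart. Among WT livers 5 of the 10 genes were called (16.4% of all genes). Kdr (0.70 ± 0.17, adjusted p = 0.0168) and Ehd3 (0.84 ± 0.21, adjusted p = 0.0168) were higher in Bred WT, where 8.45% of all genes were called higher. Lyve1 (-0.97 ± 0.22, adjusted p = 0.0123), Cdh5 (-0.49 ± 0.12, adjusted p = 0.015) and Pecam1 (-0.37 ± 0.11, adjusted p = 0.0372) were lower, where 7.96% were called lower. Bred WT and Virus WT did not overlap for 7 of the 10 genes, beside 34.8% of all genes.

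Lyve1 had 5.75, 3.79 and 6.88 FPKM in Bred WT livers, against 10.6, 10.5 and 10.3 FPKM in Virus WT livers. Kdr had 7.35, 6.87 and 7.41 FPKM in Bred WT livers, against 3.81, 3.96 and 5.25 FPKM in Virus WT livers. The 2 groups did not overlap for either gene. The Lyve1 call held with each of the 6 libraries left out in turn, that of Cdh5 was lost without Virus WT replicate 3, those of Kdr and Ehd3 without Virus WT replicate 1 or 2, and that of Pecam1 without any of 5 libraries, Bred WT replicate 1 excepted. Clec4g had 23.2, 28.5 and 27.4 FPKM in Bred WT livers, against 32.9, 32.6 and 36.5 FPKM in Virus WT livers, and just missed the threshold (-0.40 ± 0.13, adjusted p = 0.0549). Macrophage markers, 5 of 11 of which were called lower in Bred WT, summed to 668 to 786 FPKM in Bred WT and 1032 to 1200 FPKM in Virus WT, and their part in the values of Lyve1 and Stab1 was not tested. Platelet markers summed to 4.77 to 5.44 FPKM in Bred WT and 6.402 to 12.2 FPKM in Virus WT, without overlap. Of these, Pf4 was called lower in Bred WT (-1.54, adjusted p = 0.0058, edgeR). Itga2b (-0.19, adjusted p = 0.625) and Ppbp (0.68, adjusted p = 0.541), of opposite signs, were not called. The part of platelets in the Pecam1 values was not tested. Summed hepatocyte markers did not overlap either, at 29330 to 30890 FPKM in Bred WT and 22370 to 26960 FPKM in Virus WT. The single hepatocyte markers had estimates of both signs, and none was called by edgeR. Alb (0.60, adjusted p = 0.0605), Cps1, Cyp2e1 and Serpina1c were above 0, and Apoa1 (-0.38), Tat (-0.56), Ttr and Asgr1 below 0.

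Among KO livers 0 of the 10 genes were called between methods by edgeR (3 at an unadjusted p under 0.05; 3.02% of all genes were called), DESeq2 called 1 and limma 0. Ehd3 had the largest difference, 21.6, 29.1 and 20.1 FPKM in Bred KO livers against 14.2, 13.1 and 15.4 FPKM in Virus KO livers (log2 change 0.75 ± 0.21, adjusted p = 0.0648). Ehd3, Cdh5 (0.33 ± 0.12, adjusted p = 0.139) and Tek were higher in every Bred KO than in any Virus KO library, beside 14.3% of all genes so placed and 28.5% without overlap in either direction. Lyve1 stood at -0.63 ± 0.22 (adjusted p = 0.13), and in FPKM it was lower in every Bred KO than in any Virus KO library. Summed platelet markers (8.40 to 9.73 FPKM in Bred KO and 7.02 to 8.19 FPKM in Virus KO) and lymphocyte markers (4.58 to 5.06 and 7.19 to 7.60 FPKM) did not overlap. By edgeR, the platelet markers Itga2b (0.85, adjusted p = 0.0686) and Pf4 (0.16, adjusted p = 0.792) had estimates above 0. Ppbp (-1.155, adjusted p = 0.135) went the other way. The part of platelets and lymphocytes in the endothelial values was not tested. Without Bred KO replicate 1, 2 of the 10 genes were called, Ehd3 among them (0.85, adjusted p = 0.0447).

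The genes whose level went most closely with the mean of the 10 were found over the scaled log2 counts, as a description across libraries. Over the 8 unfed tissue libraries, Esyt1 (Pearson r = 0.98), Hnrnpa3 (0.97), Tspan9 (0.96), Ltbp1 (0.96) and Adgrf5 (0.96) came first among 12497 genes. Over the 12 DDC libraries, Mamld1 (0.94), Mtcl1 (0.94), Fam117b (0.94), Gga1 (0.92) and Unc45a (0.91) came first among 13945. The tissue libraries include WT replicates 2 and 4 with their gene length trend, and no gene was among the 5 of both sets of libraries.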

How the data were processed

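Total RNA from livers or isolated hepatocytes was depleted of ribosomal RNA and sequenced after a directional library kit. Hepatocytes were isolated by perfusion and Percoll density separation. The authors mapped reads to mm10 with STAR and deposited read counts per gene, made with HTSeq 0.6.1 per the labels, in a table for the 16 unfed libraries and another for the 12 DDC libraries. The same deposited tables hold FPKM, which the authors computed from those counts, gene length and library total. Library totals were 11162678 to 20428773 counts. The labels carry animal numbers, so libraries were taken as separate mice.

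Counts were tested with edgeR 4.0.16 in R 4.3.3 (TMM scaling, filterByExpr with a minimum count of 10 and a total of 15, quasi-likelihood F test, Benjamini-Hochberg adjustment over all genes that passed, threshold 0.05), in 1 fit of 4 groups per table, and a fold change is a log2 change of that fit. The method was tested on simulated data. Exact two-sided permutation tests used log2(CPM + 1). Alternatives were DESeq2 1.42.0, its size factors, no filter, limma 3.58.1 on log2(FPKM + 1), a replicate block, fits of 2 groups, libraries left out, and removal of each library's gene length trend (spline with 5 degrees of freedom). Same-numbered Bred KO and WT libraries deviated together from their group means (r = 0.23 to 0.29 over genes, n = 3 pairs), a pairing found in the data and not stated in the labels, so block values stand beside the Bred results; no other pair of groups met this. No libraries were identical. All 10 genes, Ptk2 and, from each other list, called or smallest-p genes are named, with members of opposite sign for some marker sums. The shares of all genes called are at adjusted p under 0.05. Shares of all genes at an unadjusted p are not given, so counts at an unadjusted p have no background beside them. The members and lists were chosen with earlier results of these data known.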

Additional observations from a re-analysis of the deposited data

Results flagged for a closer look

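In 40 groups of 4 unfed libraries (10 genes in 4 groups), 3 had a library far from the others by Dixon's criterion, where chance gives about 1 in 20. Pecam1 in tissue KO replicate 4 had 6.70 FPKM while the other 3 tissue KO libraries had 5.98 to 5.99 FPKM. Kdr in hepatocyte KO replicate 4 had 3.67 FPKM, below 6.29 to 6.66 FPKM in the other 3. Tek in tissue KO replicate 1 had 2.77 FPKM, below 3.80 to 3.92 FPKM in the other 3.

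For 7 endothelial genes the KO against WT change in DDC livers differed between the methods by the edgeR interaction test (Bred minus Virus, log2). This test called 3.21% of all 13955 genes. The lists searched were the 10 genes described here and 10 other sinusoidal, 18 general, 14 arterial and continuous and 4 lymphatic endothelial genes. Lists of 5 endothelial signals and of 10 ligands of KDR and TEK and their partners were searched too. The difference was 0.82 for Cdh5, 1.16 for Esam, 2.04 for Gja4, 2.21 for Selp, 1.05 for Bmp2, -1.23 for Cldn5 and 1.48 for Nos3 (adjusted p = 0.0229, 0.00714, 0.0153, 0.0153, 0.0351, 0.0394 and 0.0429 in this order). In Virus livers alone Gja4 stood at -0.72 (adjusted p = 0.166), Nos3 at -0.13 (adjusted p = 0.819) and Bmp2 at -0.32 (adjusted p = 0.333).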

How the results depend on the processing

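For the 46 single-gene values, 667 of 731 alternatives kept direction and side of the threshold, 29 passed it newly, 30 no longer passed and 5 changed sign. The sign changes were in hepatocyte against tissue of WT: without tissue WT replicates 2 and 4 together, Kdr was 0.13 and Stab2 0.33, and with each library left out Kdr was -0.382 to 0.0136 and Stab2 -0.21 to 0.18. In FPKM rather than scaled counts, Kdr of hepatocyte KO and tissue KO overlapped (exact permutation p = 0.0571, n = 4 per group).

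The number of the 10 genes called changed as follows. Hepatocyte against tissue of WT gave 7 with length trend and replicate block together, against 4. In Bred, against 0, the replicate block gave 2, length trend with block 1, limma 1, DESeq2 1 and libraries left out 0 to 1. In Virus, against 0, the block gave 1, the length trend 1, length trend with block 1, the 2 groups alone 2, limma 1 and DESeq2 1. Against 1, both methods together gave 0 to 1 with libraries left out, and the interaction 0 with limma and 0 to 1 with libraries left out. Between WT of the methods, against 5, length trend with block gave 3, the 2 groups alone 3 and libraries left out 2 to 5. Between KO, against 0, no filter gave 1, DESeq2 1 and libraries left out 0 to 2.

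Over all genes, calls moved by more than 1.5 times as follows. Bred, 872: block 1735, with length trend 1998, 2 groups alone 0, DESeq2 1690. Virus, 371: block 677, with length trend 848, 2 groups alone 1306, DESeq2 927. Both methods, 894: block 1751, with length trend 2210, limma 1705, DESeq2 1780. Interaction, 448: block with length trend 760, DESeq2 881. Between WT, 2290: block 1446, with length trend 1225, 2 groups alone 1378. Between KO, 422: length trend 270, block 112, both 80, DESeq2 1132. Tissue, 1: no filter 2, length trend 2, with block 2, limma 9, DESeq2 187. Hepatocyte, 40: 2 groups alone 5, DESeq2 162. Unfed interaction, 0: no filter 3, limma 3, DESeq2 36. Pooled, 3: block 16, with length trend 11, material as a term 24, without tissue WT replicates 2 and 4 5, limma 5, DESeq2 41. Hepatocyte against tissue of WT, 3176: block with length trend 1955, 2 groups alone 1601, without tissue WT replicates 2 and 4 4903.

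Scaling also moved the split of calls. With the length trend removed, hepatocyte against tissue had 2942 higher and 1829 lower in KO (2527 and 2994 otherwise) and 1646 and 1008 in WT (1227 and 1949), and limma gave 855 and 2258 in WT. With limma, Bred had 826 and 185 (442 and 430), Virus 431 and 101 (197 and 174) and both methods 1516 and 189 (455 and 439), and the length trend gave Virus 159 and 275 and both methods 403 and 742. Among unfed groups, same-numbered libraries did not deviate together, and the replicate block changed no call of the 10 genes between KO and WT; in hepatocyte against tissue it gave 8 calls in KO and 5 in WT. The cause of these differences was not tested. Lyve1 had the fewest counts of the 10 (20 to 69 in hepatocyte KO libraries, with a coefficient of variation of 67.0% in FPKM), and 3 libraries per DDC group cannot reach a permutation p under 0.1.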
